A study of Mus with 5 samples.

Results

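Coronary and endocardial endothelial markers were examined in the RNA of E14.5 mouse hearts. The markers are 7 genes chosen by Ensembl identifier, namely *Pecam1*, *Cdh5*, *Eng*, *Emcn*, *Fabp4*, *Aplnr* and *Epas1*, and all 7 were present among the 12857 genes measured. The question was whether the markers shared by all endothelial cells differ between transgenic and WT hearts along with those of the coronary vessels. The transgenic embryos, Nkx2.5Cre/+;Bmp2tg/+, carry Cre at the *Nkx2.5* locus, which is active in cardiac precursors, and a *Bmp2* cDNA followed by eGFP under a CAG promoter at *Rosa26*, which is expressed once Cre has removed a stop cassette. The transgene came from 1 clone of ES cells. The WT embryos are labelled with neither allele, and by that label effects of the Cre allele and of *Bmp2* cannot be told apart. In the cross tabulated by the study, the mothers carry Cre on both chromosomes, so embryos without the transgene also carry Cre. Whether the WT pools were such siblings is not stated. Each library holds the RNA of 4 hearts without their atria, and 3 transgenic and 2 WT pools were compared. The authors had left out 1 more WT pool, which clustered poorly with the other WT pools.

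Endothelial cells line the heart and its vessels. The endocardium covers the trabeculae and the valves, while the coronary vessels grow as a plexus within the myocardial wall and are later remodelled into arteries, capillaries and veins. Both layers carry the adhesion molecules by which endothelial cells hold together, and both sense BMP ligands through receptors at the cell surface. PECAM1 and VE-cadherin, encoded by *Cdh5*, are junctional proteins of endothelial cells in general, and endoglin, encoded by *Eng*, is a co-receptor for BMP9 and BMP10. Endomucin, encoded by *Emcn*, is a sialomucin found on endocardium, capillaries and veins. FABP4 is a fatty acid carrier that marks coronary endothelium in the embryonic heart, APLNR is the receptor for apelin, and EPAS1, also called HIF2α, is a transcription factor stabilised by low oxygen.

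The reads recovered over the 12857 genes came to 7427905 to 10564780 a library. Values are given as counts per 1000000 reads (CPM) of a library size that the authors had scaled with edgeR. *Bmp2* itself stood at 23.0 to 27.1 CPM in transgenic pools, above the 10.2 and 14.1 CPM of WT pools (limma adjusted p = 0.000712). Differences between genotypes were computed as log2(CPM + 0.5) with limma, transgenic minus WT, and are called here when the Benjamini-Hochberg adjusted p over all 12857 genes is at or under 0.05. Of all genes, 1.59% were called lower in transgenic hearts, 1.22% higher and 2.82% in either direction.

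The log2 fold changes of the 7 markers lay on both sides of 0. *Aplnr* and *Epas1* fell in transgenic hearts, with differences of -26.2% and -20.1% from WT. Of the 3 pan-endothelial markers 0 were called by limma, although 2 had an unadjusted p under 0.05, with *Cdh5* and *Pecam1* below WT in every transgenic pool and *Eng* slightly above. *Fabp4* and *Emcn* overlapped between the genotypes. In all, limma called 2 of the 7 lower, beside 1.59% of all genes, and 0 higher, beside 1.22%. At an unadjusted p under 0.05, 4 of the 7 were lower, beside 9.40% of all genes, and 0 were higher, beside 8.30%. edgeR's exact and quasi-likelihood tests and DESeq2, run on the reads behind the values, also called 0 higher. *Aplnr*, *Epas1* and *Cdh5* were already in the study's list of differing genes from these same libraries. The members were also chosen with earlier results of these data known. Their counts beside all genes are thus not independent evidence.

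**Figure D1:**
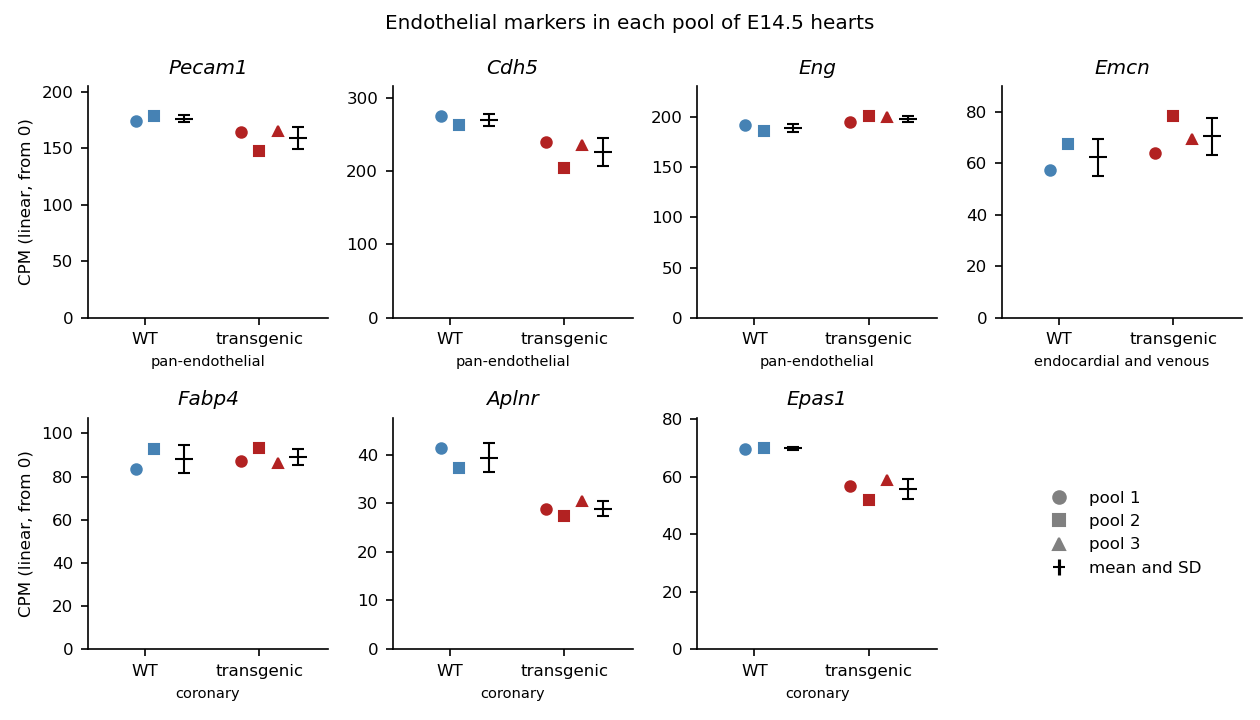
CPM of each marker in the 2 WT pools (blue) and the 3 transgenic pools (red), with symbols for the pool numbers and black bars for the mean ± SD, on axes that start at 0. *Aplnr* and *Epas1* show red points well below the blue ones, whereas the points of *Fabp4* and *Emcn* overlap.

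Among the coronary markers, *Aplnr* (ENSMUSG00000044338, RefSeq annotation of GRCm38.p6, chr2:85136360-85139923) had the largest difference. Transgenic pools 1, 2 and 3 gave 28.9, 27.4 and 30.4 CPM, and WT pools 1 and 2 gave 41.4 and 37.3 CPM. Every transgenic pool was lower than both WT pools, and the ranges were well apart. The mean was 28.9 ± 1.51 CPM (SD, n = 3) against 39.4 ± 2.96 CPM (SD, n = 2). This was a log2 fold change of -0.44 (SE 0.09, limma adjusted p = 0.0131). As a percentage the level differed by -26.2%, with a 95% interval from -35.3% to -16.0%. These values rest on 243 to 392 reads a pool. *Aplnr* ranked 355 among the 12857 log2 fold changes, counted from the most negative. The call was lost without the variance trend of limma (adjusted p = 0.165), without WT pool 1 (limma adjusted p = 0.239, log2 fold change -0.36) and without WT pool 2 (limma adjusted p = 0.0825, log2 fold change -0.51), within a range of 0.00132 to 0.239 over 18 other settings.

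*Epas1* (ENSMUSG00000024140, chr17:86753864-86833410) encodes the hypoxia-inducible factor. Its transgenic values were 56.7, 51.7 and 58.8 CPM, set against 69.6 and 70.1 CPM in WT. The WT pools differed from each other by less than 1 CPM, and all transgenic pools lay under them. *Epas1* fell by 0.32 on the log2 scale (SE 0.07, limma adjusted p = 0.0242), which corresponds to a difference of -20.1% (95% interval from -28.2% to -11.1%). The call was lost without the variance trend of limma (adjusted p = 0.203), with DESeq2 (adjusted p = 0.0605), without transgenic pool 2 (limma adjusted p = 0.0738) and without WT pool 1 or pool 2 (limma adjusted p = 0.225 and 0.224), within a range of 0.00899 to 0.225 over 18 settings. *Aplnr*, *Epas1* and *Cdh5* also stand in the list of differing genes that the study drew from these same libraries, so their calls are not independent evidence of a direction.

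*Fabp4* (ENSMUSG00000062515, chr3:10204342-10208616) is the marker taken to label coronary endothelium as a whole. In transgenic hearts it measured 87.2, 93.4 and 86.5 CPM, and in WT hearts 83.6 and 92.8 CPM. The highest value came from a transgenic pool and the lowest from a WT pool, and the genotypes overlapped. The means were 89.1 ± 3.78 CPM (SD, n = 3) for transgenic and 88.2 ± 6.45 CPM (SD, n = 2) for WT, with a log2 fold change of 0.02 (SE 0.07, limma adjusted p = 0.938). The 95% interval of the difference ran from -8.51% to 11.6%, so changes within those bounds remain compatible with these pools. The interval of *Fabp4* lies wholly above the estimates for *Aplnr* and *Epas1*. The paper counted fewer *Fabp4*-positive coronary vessels in sections of transgenic hearts of the same stage. Counts of vessels in sections and RNA levels of pooled hearts are unlike measures, and the relation between them was not tested.

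Of the pan-endothelial markers, *Cdh5* (ENSMUSG00000031871, chr8:104101613-104144504) had the largest difference. Its level was 239, 204 and 236 CPM in transgenic hearts, whereas WT hearts had 275 and 263 CPM. All transgenic pools were below both WT pools, and transgenic pool 2 was the lowest by far. Its log2 fold change was -0.25 (SE 0.07, limma adjusted p = 0.0563), a difference of -16.1% with a 95% interval from -24.0% to -7.31%. *Cdh5* lay just above the threshold, and it passed in 6 of 18 other settings, with adjusted p-values from 0.00978 to 0.372. edgeR's exact test called it (adjusted p = 0.0305), whereas edgeR's quasi-likelihood test and DESeq2 did not (adjusted p = 0.0514 and 0.0504). The study's own list of differing genes, drawn from these same libraries, also holds *Cdh5*. Without transgenic pool 2 its log2 fold change was -0.18 (limma adjusted p = 0.136).

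*Pecam1* (ENSMUSG00000020717, chr11:106654213-106715281) gave 164, 147 and 165 CPM in transgenic hearts, against 174 and 178 CPM in WT hearts. The transgenic values were again all below the WT values, and pool 2 was again the lowest. The difference on the log2 scale was -0.15 (SE 0.06, limma adjusted p = 0.216), or -9.87% (95% interval from -17.7% to -1.24%). *Pecam1* was called in 0 of 18 other settings, with adjusted p-values from 0.137 to 0.567, although its unadjusted limma p was 0.0285. Without transgenic pool 2 its difference was -0.10 on the log2 scale (limma adjusted p = 0.515).

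*Eng* (ENSMUSG00000026814, chr2:32646595-32682669) did not share this pattern. Transgenic hearts had 195, 201 and 200.0 CPM of it, and WT hearts 193 and 187 CPM. All transgenic values exceeded the WT values, but narrowly. The log2 fold change was 0.07 (SE 0.05, limma adjusted p = 0.545), a difference of 4.85% with a 95% interval from -3.16% to 13.5%. The gene's span overlaps that of the protein-coding gene *Fpgs* in the RefSeq table, and those of *Cdh5* and *Emcn* overlap lncRNA genes. Whether the counting used strand is not given in the sources used here, so reads from such overlaps cannot be told apart.

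*Emcn* (ENSMUSG00000054690, chr3:137341062-137431069) had the widest spread of the markers relative to its mean, in both genotypes. Its values were 64.0, 78.3 and 69.3 CPM in transgenic hearts and 57.2 and 67.4 CPM in WT hearts. WT pool 2 exceeded transgenic pool 1, so the genotypes overlapped. On the log2 scale the difference was 0.18 (SE 0.09, limma adjusted p = 0.31), or 13.0% with a 95% interval from -0.773% to 28.8%. Single pools moved this value by more than 1.5 times, to 0.06 without WT pool 1, 0.10 without transgenic pool 2 and 0.29 without WT pool 2 (limma adjusted p = 0.857, 0.676 and 0.337).

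**Figure D2:**
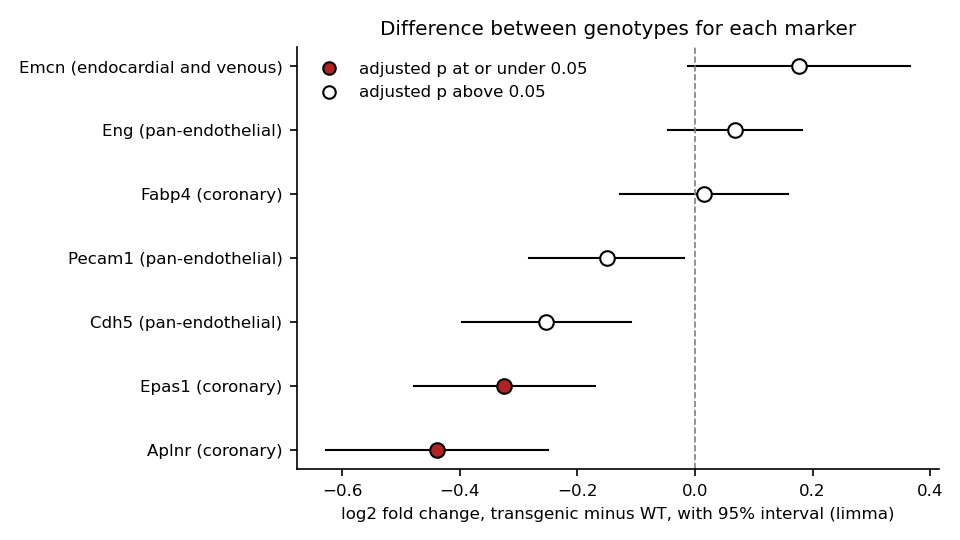
The log2 fold change of each marker (x axis, transgenic minus WT) with its 95% interval from limma, ordered by size, with filled points for an adjusted p at or under 0.05. The intervals of *Aplnr*, *Epas1*, *Cdh5* and *Pecam1* lie below 0, while those of *Fabp4*, *Eng* and *Emcn* include it.

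Taken in order, the log2 fold changes ran from -0.44 for *Aplnr* through -0.32 for *Epas1*, -0.25 for *Cdh5*, -0.15 for *Pecam1*, 0.02 for *Fabp4* and 0.07 for *Eng* to 0.18 for *Emcn*. Each gene's 95% interval overlapped that of its neighbour in this order. The median was -0.15 over the 7 markers and 0.00 over all genes. The groups by role did not separate, since the coronary markers spanned from -0.44 to 0.02 and the pan-endothelial markers from -0.25 to 0.07. Of the 7 markers, 4 had every transgenic pool below both WT pools, beside 18.0% of all genes, and 1 had every one above, beside 17.7%. The other 2 overlapped, while 35.7% of all genes did not overlap in either direction. Fewer endothelial cells and less of a transcript per cell cannot be told apart in the RNA of pooled hearts.

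To compare the markers within the same RNA, each was divided by a pan-endothelial gene of its own pool. Relative to *Cdh5*, *Aplnr* was at 0.121, 0.134 and 0.129 in transgenic pools 1, 2 and 3, and at 0.151 and 0.141 in WT pools 1 and 2. Its ratio was thus below WT in every transgenic pool, with a log2 difference of -0.19, and the same held for 1.77% of all genes. Since *Cdh5* was itself below WT in every transgenic pool, the ratio to it was above WT in every transgenic pool for 62.5% of all genes. *Epas1* was at 0.237, 0.254 and 0.249 of *Cdh5* in the transgenic pools and at 0.253 and 0.266 in the WT pools, which overlapped. *Fabp4* was at 0.365, 0.458 and 0.367 of *Cdh5* in the transgenic pools, all above the WT values of 0.304 and 0.352. The ratios of *Pecam1*, *Eng* and *Emcn* to *Cdh5* had log2 differences of 0.10, 0.32 and 0.43. That all 4 lay above WT in every transgenic pool was also the case for most genes.

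Relative to *Pecam1*, both *Aplnr* and *Epas1* were below WT in every transgenic pool, with log2 differences of -0.29 and -0.17, as were 4.43% of all genes. *Epas1* was at 0.345, 0.351 and 0.356 of *Pecam1* in the transgenic pools and at 0.400 and 0.393 in the WT pools. *Fabp4*, *Eng* and *Emcn* were above WT in every transgenic pool on this scale, as were 43.5% of all genes, *Pecam1* itself being below WT in each. For each of the 11 distinct ratios, the exact two-sided permutation test of 3 pools against 2 doubled the smaller tail. Run in that way, it can give no p under 0.2. No ratio could therefore pass the threshold.

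**Figure D3:**
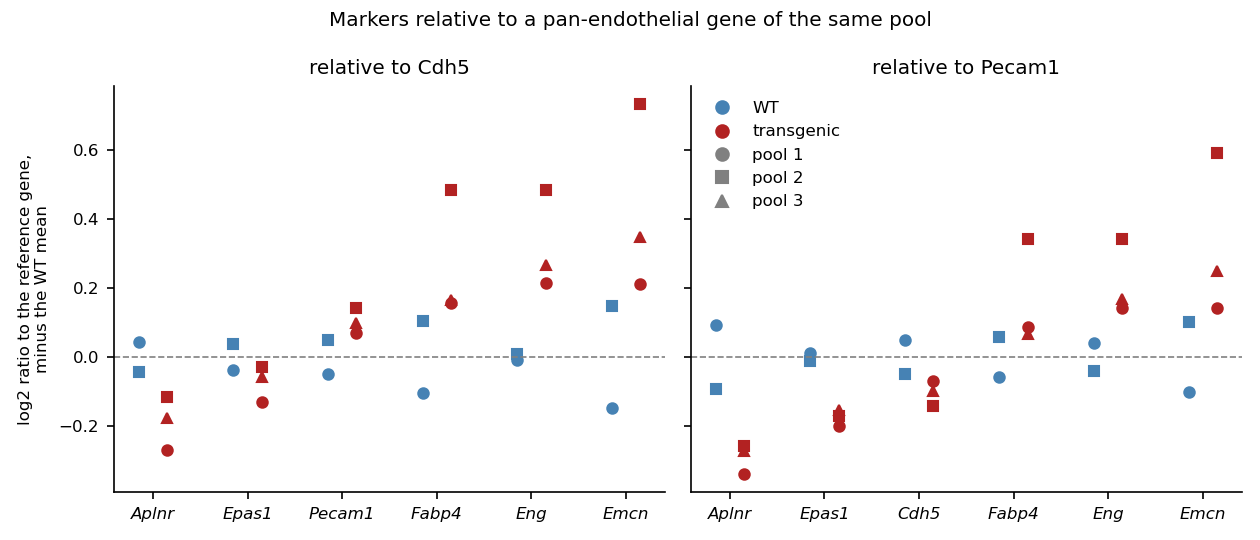
Log2 ratio of each marker to *Cdh5* (left) and to *Pecam1* (right) in each pool, with the mean of the WT pools set to 0, WT in blue and transgenic in red. *Aplnr* lies below 0 in every transgenic pool in both panels, and transgenic pool 2 (squares) is the highest of the transgenic pools for all 6 ratios to *Cdh5*, whose own level was lowest in that pool.

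The spread among the transgenic pools was uneven across the markers. Transgenic pool 2 held the lowest of the 3 transgenic values for 4 markers, *Pecam1*, *Cdh5*, *Aplnr* and *Epas1*, and the highest for the other 3. It was thus an extreme for 7 of 7, whereas it was an extreme for 68.2% of all genes. The SD of the transgenic pools was 8.60% of the mean for *Cdh5* and 10.2% for *Emcn*, but 1.51% for *Eng*. Set against counting error alone, the chi-square per degree of freedom among transgenic pools was 15.7 for *Cdh5*, 7.23 for *Emcn* and 5.94 for *Pecam1*, and 0.451 for *Eng* and 0.679 for *Aplnr*. A value near 1 is what read sampling gives, so *Eng* and *Aplnr* varied no more than their read numbers allow.

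Other endothelial genes came from lists of 67 symbols, of which 16 outside the 7 markers could be paired with an identifier. The pairing came from the study's own list of differing genes, so all 16 were selected for a difference in these libraries, and their counts are not independent evidence. Of the 16, limma called 9 lower, beside 1.59% of all genes, and 1 higher, beside 1.22%. Their median log2 fold change was -0.38, beside 0.00 over all genes. The same selection applies to the counts of every list below, apart from *Emcn*. The pan-endothelial list of 22 gave 5 pairs including *Emcn*, with 2 called lower. *Kdr*, the main VEGF receptor, had 137, 112 and 132 CPM in transgenic hearts and 172 and 176 CPM in WT hearts. It fell by 0.46 on the log2 scale (SE 0.07, limma adjusted p = 0.00286). *Tie1*, an orphan receptor of the angiopoietin system, had a log2 fold change of -0.31 (SE 0.07, limma adjusted p = 0.0277). Both exceeded *Pecam1* and *Cdh5* in the size of the difference.

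The endocardial list of 12 gave 2 pairs, both called lower. *Plvap*, which forms the diaphragms of fenestrated endothelium, fell to 39.1, 36.0 and 48.5 CPM in transgenic hearts from 65.8 and 69.2 CPM in WT hearts (log2 fold change -0.72, limma adjusted p = 0.00109). *Adgrg6*, listed by the study as *Gpr126* and encoding an adhesion receptor, had 35.0, 25.7 and 41.9 CPM against 69.6 and 68.8 CPM, and had the largest fall of the 16 with a log2 fold change of -1.03 (SE 0.14, limma adjusted p = 0.000653). *Emcn*, the endocardial and venous marker above, had a log2 fold change of 0.18 that was not called.

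The coronary arterial list of 14 gave 5 pairs, with 3 called lower and 1 higher. The gap junction gene *Gja5*, which trabecular myocardium also expresses, fell by 0.55 on the log2 scale and the semaphorin gene *Sema3g* by 0.66, while the receptor gene *Notch1* fell by 0.35 (limma adjusted p = 0.00494, 0.0456 and 0.0104). *Unc5b*, a netrin receptor, rose from 190 and 180 CPM in the WT pools to 260, 233 and 209 CPM in the transgenic pools (log2 fold change 0.34, limma adjusted p = 0.0225). The venous and capillary list of 10 gave 4 pairs, with 2 called lower. *Nrp2*, a receptor for VEGF-C and semaphorins, had a log2 fold change of -0.62 (limma adjusted p = 0.00402), and *Cd36*, a fatty acid transporter of capillaries and cardiomyocytes, one of -0.31 (limma adjusted p = 0.00816). *Fabp5*, a close relative of *Fabp4*, measured 197, 188 and 211 CPM in transgenic hearts against 166 and 175 CPM in WT, and was not called (limma adjusted p = 0.0672). Among 4 BMP receptor genes 1 was paired, *Bmpr2*, with a log2 fold change of -0.42 that was not called (limma adjusted p = 0.0522). Of the lists of 2 apelin genes and 6 genes around hypoxia-inducible factors, 0 could be paired.

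**Figure D4:**
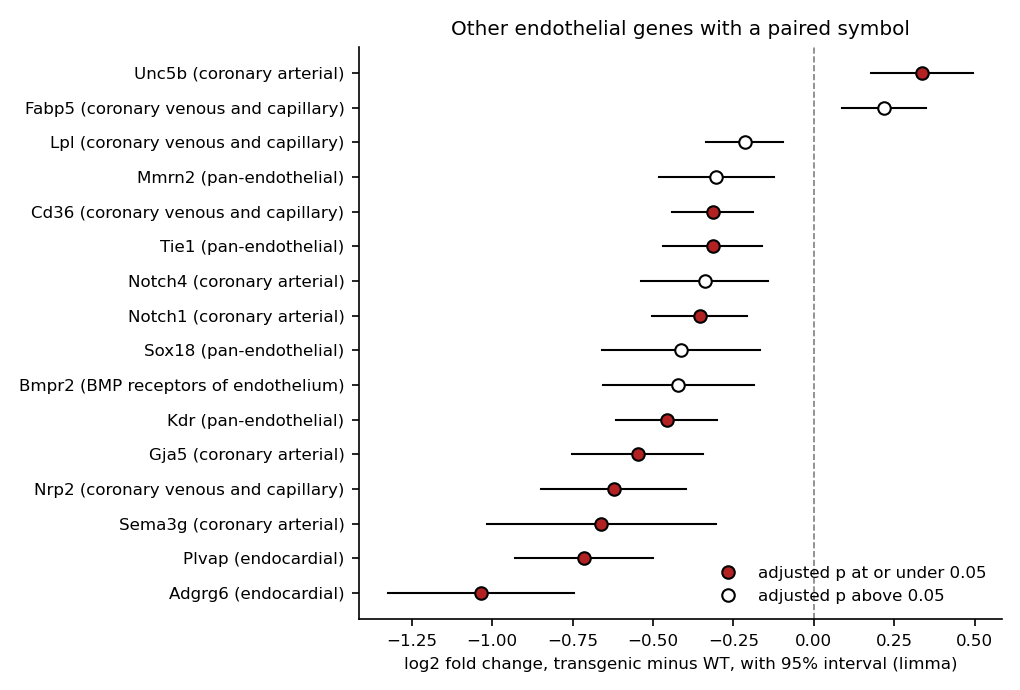
The log2 fold change (x axis, transgenic minus WT) of 16 other endothelial genes with 95% intervals from limma, with filled points for an adjusted p at or under 0.05. All were drawn from genes that the study had picked for differing, and 14 of the 16 lie below 0, from *Adgrg6* at -1.03 to *Lpl* at -0.21.

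Markers of other cell types were examined in the same way, from 9 lists of 52 symbols, of which 6 could be paired through the same list. All 6 had thus been selected for differing in these libraries, and they do not stand for their lists as a whole. limma called 3 of them lower, beside 1.59% of all genes, and 2 higher, beside 1.22%. The pericyte and smooth muscle markers *Pdgfrb*, *Rgs5* and *Myh11*, 3 of 6, summed to 138 to 157 CPM in the transgenic pools and to 188 and 185 CPM in the WT pools, and *Rgs5* and *Myh11* were called lower. *Flt4*, 1 of 4 lymphatic markers and also a receptor of growing coronary endothelium, was called lower, at 26.4 to 32.6 CPM against 43.6 and 41.8 CPM. *Tbx18*, 1 of 6 epicardial markers, was called higher, at 86.2 to 88.1 CPM against 65.3 and 69.7 CPM. *Myl7*, 1 of 4 atrial markers, was called higher, at 617 to 869 CPM against 384 and 373 CPM. *Epas1* and *Aplnr* are not restricted to endothelium, and *Fabp4* is also made by adipocytes and macrophages. For cardiomyocyte, cushion mesenchyme, red cell, leukocyte and platelet, and adipocyte markers 0 could be paired. The part of any of these cell types in the differences above was not tested.

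**Figure D5:**
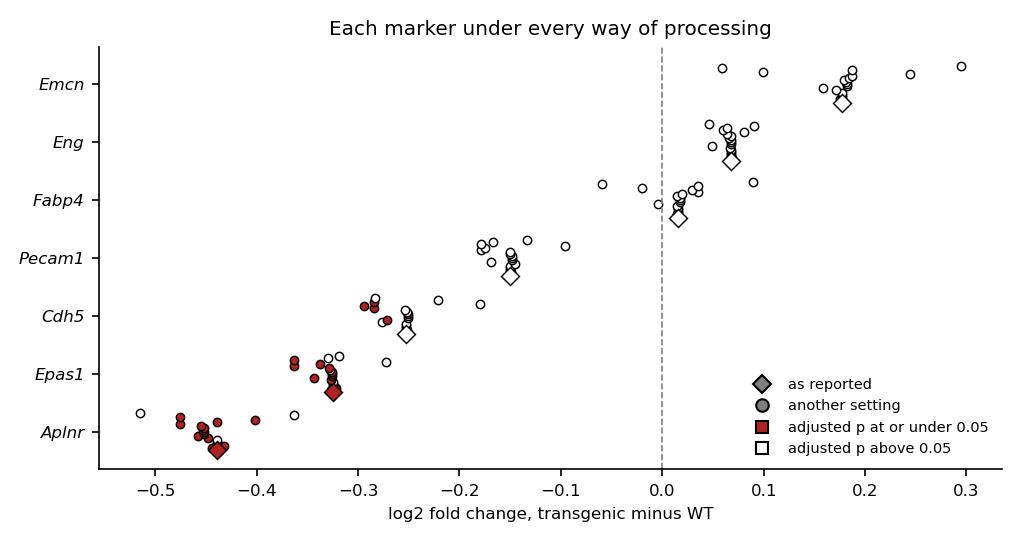
The log2 fold change of each marker as reported (diamonds) and in 18 other settings (circles), filled where the adjusted p is at or under 0.05. *Aplnr* and *Epas1* are filled in most settings, *Cdh5* in 6 of 18, and *Fabp4* lies on both sides of 0.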

How the data were processed

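Libraries were made from polyA RNA of 3 transgenic and 2 WT pools. Per the labels and the study's methods, the authors trimmed reads with cutadapt, quantified genes with RSEM over GRCm38 and Ensembl genes, left out 1 WT pool, and scaled libraries with edgeR. The submitters' processing notes give RSEM 1.2.19, Bowtie 0.12.9 and edgeR 3.0.8, and the methods name another version of RSEM. The authors deposited CPM values of 12857 genes. Every value (100%) came out as a whole number of reads, within 0.02 of a read, so that reads could be recovered. Intervals cover these pools only, and counting errors cover read sampling only. Pools numbered alike share only a number. The p-values of limma rest on the spread between these pools together with a variance trend over all genes. They thus draw on the spread of other genes as well as on each gene's own.

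The genotypes were compared on log2(CPM + 0.5), a scale that understates changes of low genes, with limma 3.58.1 (variance trend, no covariate) in R 4.3.3. The filter of at least 1 CPM in at least 2 libraries removed 0 genes. Alternatives were other pseudocounts (0.1 and 1), filters, scalings and variance models, edgeR 4.0.16 and DESeq2 1.42.0 on the recovered reads, a block for pool number, and leaving out single pools. The test was tested on simulated data of 12857 genes for this comparison, where it recovered 96 of 100 genes changed by 1 on the log2 scale and 71 of 100 changed by 0.5, with 11 false calls. No smaller change was simulated, and the reported change of every marker was under 0.5 in size. Recovery at the size of the markers' changes is thus not known.

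The members and lists were chosen with earlier results of these data known. All 7 members were named, with at most 5 genes a list, taking called genes with the largest change first, and for each member the 3 named genes of nearest pattern. *Fabp5*, *Bmpr2*, *Pdgfrb* and *Lpl* were chosen after their values were seen. Symbols came from the member definition and, for 404 identifiers (3 of them members), from the study's list of differing genes. Positions came from RefSeq's GRCm38.p6 table, matched by symbol for 7 of 7. Gene lengths were not used, so levels of different genes are not compared. Promoter motifs were planned and not analysed here.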

Additional observations from a re-analysis of the deposited data

How the results depend on the processing

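*Aplnr* kept its direction in all 18 other settings and its call in 15, and *Epas1* kept its direction in 18 and its call in 13. Not all of these settings are separate checks. Running without the filter repeated the reported fit, since the filter removed 0 genes. Scaling the libraries anew for edgeR's quasi-likelihood test repeated the values of that test. limma called 2 members and 362 genes. Without the variance trend the counts were 0 members and 10 genes, with 3 members at an unadjusted p under 0.05. In the reported fit, 9.40% of all genes were lower at that cutoff and 8.30% higher. These shares are not given for the other settings, so member counts at that cutoff lack a background there. DESeq2, which gave an adjusted p for 10862 genes, called 1 member and 229 genes. With 1 pool left out, 0 to 3 members and 43 to 464 genes were called. The lowest counts came without WT pool 1 or pool 2 (45 and 43 genes and 0 members, with 3 and 4 members at an unadjusted p under 0.05), when the lone WT pool was assumed to vary like the transgenic pools. Without transgenic pool 2, 1 member and 226 genes were called. At an unadjusted p under 0.05, 1 member, *Emcn*, was higher without transgenic pool 1, without WT pool 2 and with the pool number as a block, against 0 as reported. *Fabp4* changed sign with libraries rescaled to the same total (-0.0038 on the log2 scale) and with pools left out (-0.0592 to 0.0894). With that rescaling, 251 genes were lower and 125 higher, against 205 and 157. The pool number as a replicate block gave 655 genes and 3 members, *Cdh5* being added (limma adjusted p = 0.00978). No WT pool shares the number of transgenic pool 3, so with this block each marker's log2 fold change equalled that found without that pool. Deviations of same-numbered pools correlated at -0.03 and -0.05, so the numbers were not taken to pair the pools. Apart from the named cases the causes were not tested. With 243 reads in the thinnest library for *Aplnr*, counting error alone was 6.42% of its value.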

Other observations

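The genes whose log2 values over the 5 pools, centred on the gene's mean, lay nearest to each member were sought among 376 named genes with a mean of at least 10 CPM, by the root mean square difference. Nearest to *Aplnr* were *Scube1* (0.0072), *Hmcn1* (0.0186) and *Ank1* (0.0274), each called lower by limma, and of all 10089 genes compared 0, 1 and 2 lay closer. Nearest to *Epas1* were *Pdgfra* (0.0109), *Nynrin* (0.0157) and *Txnip* (0.0189), likewise each called lower, with 0, 1 and 2 genes closer. Nearest to *Cdh5* were *Pdpk1* (0.0163), *Amotl1* (0.0257) and *Col5a1* (0.0270), with 2, 7 and 9 genes closer, none of the 3 being called. *Pecam1* was nearest to *Amotl1* (0.0388), *Lpp* (0.0428) and *Tnks* (0.0455), with 166, 252 and 311 genes closer. *Emcn* was nearest to *Hmgb2* (0.0525), *Zc3h11a* (0.0746) and *Strap* (0.0794), with 46, 200 and 280 genes closer. For *Eng* and *Fabp4* no named gene was close, since 2807 of the genes compared lay closer to *Eng* than its nearest named gene, *Phldb2* (0.0693), with *Gata6* and *Fabp4* next (3210 and 3231 genes closer). For *Fabp4*, 2002 genes lay closer than *Eng* (0.0738), with *Phldb2* and *Anp32b* next (4534 and 4546 genes closer). The named genes come almost wholly from the study's list of differing genes. A gene of near pattern has nearly the same log2 fold change as the member by construction, so a shared call is no separate result. The likeness is a description over 5 pools, and no test was made of it.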
